A study of Homo sapiens with 12 samples.

Results

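The genes described here are 46 neuronal genes, listed by name as genes of synaptic and dense core vesicles, of the neuronal cytoskeleton and axon, of neuronal RNA binding and of ion channels. Many of them are textbook targets of the repressor REST. No measured value served as a filter for the list, but it was chosen with earlier results of these data known. All 46 were found among the 58662 genes matched by Ensembl identifier. RNA-seq was performed on HEK293T cells, a human embryonic kidney line that carries the SV40 large T antigen, labelled as wild type and grown in DMEM with serum. Cells of every group had been transfected with an siRNA, either the control siCTL or one against KDM1A, HDAC2, CHD4, CARM1 or GATAD2A, and each of the 6 groups holds 2 libraries. The comparisons ask which of the neuronal genes are expressed in these cells, and whether loss of KDM1A, HDAC2 or CHD4 raises them. As a model the groups are 1 line under a transient knockdown at a time after transfection that the sources used here do not give. Nothing in the labels says that the 2 libraries of a group came from separate cultures, so the p-values below measure the spread between these libraries, which may be technical.

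REST is a zinc finger protein that binds a DNA element called RE1 near neuronal genes and keeps them silent in cells that are not neurons. One end of REST recruits SIN3 proteins, and the other recruits CoREST, a scaffold (RCOR1, RCOR2 or RCOR3) that holds the histone demethylase KDM1A together with the histone deacetylases HDAC1 and HDAC2. HDAC1 and HDAC2 are also the deacetylases of the NuRD complex, whose remodelling ATPase is CHD4 and whose subunit GATAD2A links CHD4 to the rest of the complex. KDM1A has been found with NuRD as well, while CARM1 is an arginine methyltransferase. Kidney-derived HEK293 cells are known for some neuronal traits, neurofilament expression among them.

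Gene counts came to 19308315 to 28648657 read pairs per library. Levels are given as CPM, counts scaled to the TMM-adjusted size of the library over the tested genes, or as FPKM, which also divides by exonic length and allows one gene to be set against another. In all, 12830 coding genes with a mean FPKM above 0.5 in at least 1 group were tested by edgeR's quasi-likelihood test, and calls were made where the adjusted p reached 0.05 and the fold change reached 1.2. Every adjusted p below is edgeR's, over all genes tested in that comparison. With 2 libraries on each side, the smallest two-sided p of an exact permutation test is 0.333. Lack of overlap between groups is therefore given below only as a description. In siKDM1A the listed genes NEFL, NCAM1 and MAPT did not overlap with siCTL either, although they were not called. The targeted transcripts fell by log2 values of 2.59 for KDM1A, 2.35 for HDAC2, 2.37 for CARM1 and 1.74 for GATAD2A. The CHD4 transcript fell by only 0.54, and 46.9% of its exonic bases are shared with another annotated gene on the same strand, ENSG00000285238, so that pairs on the shared bases are counted on neither.

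The DNA near the start of the listed genes was read first, because the RE1 element is what brings REST and CoREST to a gene. The query was the RE1 of CHRNB2, a nicotinic receptor gene outside the list, read from GRCh37 (chr1:154540430-154540450). With its 2 central bases left free it reads TTCAGCACCNNGGACAGCGCC, 21 bases of which 19 are specified, and it was searched on both strands within 5000 bases of the start of the canonical transcript with up to 3 mismatches. A match of this kind lay near 19 of the 46 listed genes (41.3%), against 356 of 19850 coding genes (1.79%). Many listed genes are textbook targets of REST, so the choice of the list itself favours a higher share. A match is a description of the sequence and says nothing of whether REST was bound. The matches shown here are the 3 exact ones, of genes that encode glutamate receptor subunits (GRIN1, GRIA2) and a granin (CHGA), and those of 8 further genes that the results below turn on. All coordinates are of GRCh37 (hg19), bases identical to the motif are in capitals, and the 2 unspecified positions and all mismatches are in lower case.
GRIN1, chr9:140033712-140033732, plus strand, non-coding exon: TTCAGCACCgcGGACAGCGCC
CHGA, chr14:93389868-93389888, plus strand, intron: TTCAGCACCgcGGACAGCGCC
GRIA2, chr4:158141540-158141560, minus strand, upstream: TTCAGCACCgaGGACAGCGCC
VGF, chr7:100808840-100808860, plus strand, across the start site: TTCAGCACgctGGACAGCGCC
INA, chr10:105038765-105038785, minus strand, intron: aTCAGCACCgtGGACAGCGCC
NEFH, chr22:29874664-29874684, minus strand, upstream: TTCAGCACCggGGACAGgGCC
TUBB3, chr16:89992912-89992932, plus strand, intron: gTCAGCACCaaGGACAGCGCC
CPLX2, chr5:175298891-175298911, minus strand, intron: TTCAGCACCacGGAgAGCGCa
BEX1, chrX:102318254-102318274, plus strand, intron: TTCAGtACCgaGGACAGaGgC
BEX2, chrX:102564952-102564972, plus strand, intron: aTCAGCACCgaGGACAGaGgC
SCN2A, chr2:166094994-166095014, plus strand, upstream: cTCAGCACCatGGACAGCGtt

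The exact matches of GRIN1 and CHGA are the same 21 bases, and the elements of the neighbouring paralogs BEX1 and BEX2 share the 2 mismatches at their right end. The centre of the element lay at the start site itself in VGF, 116 bases downstream of it in GRIN1 and 3172 bases downstream in TUBB3. Near MAP2, which encodes a dendritic microtubule-associated protein and moved most under KDM1A knockdown, the closest sequence had 6 mismatches, so it is not counted as a match.

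**Figure D1:**
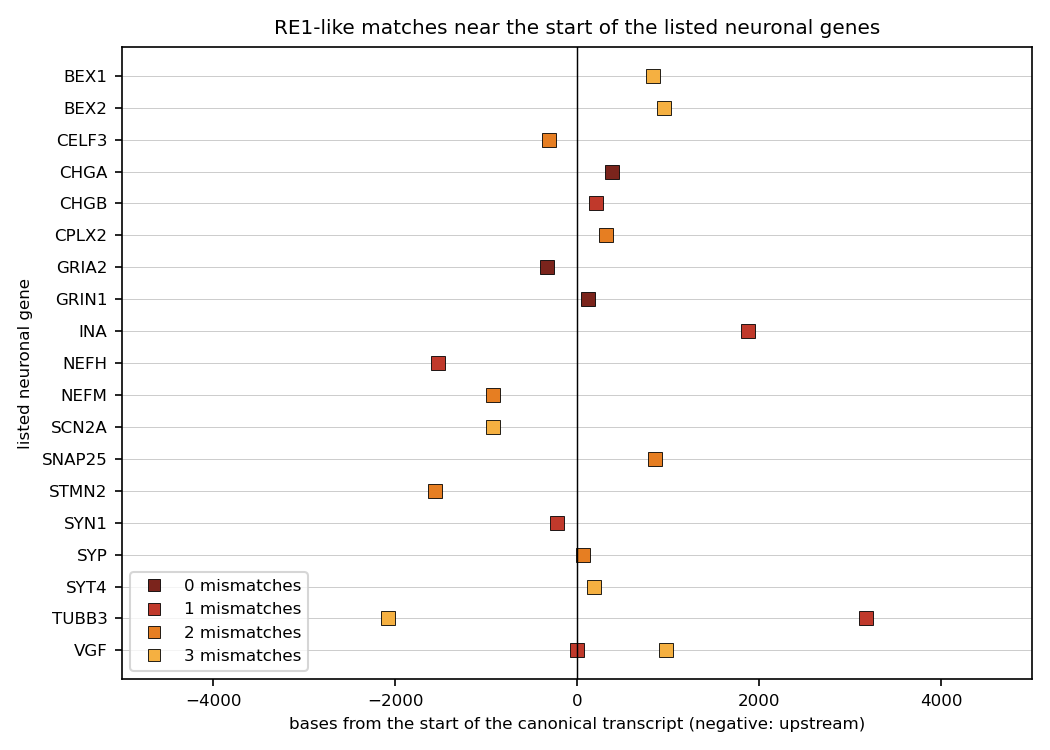
Position of each RE1-like match (squares) on the x axis, in bases from the start of the canonical transcript (negative values are upstream), for the 19 listed genes that have one. Colour gives the number of mismatches to the 19 specified bases: 3 genes (CHGA, GRIA2, GRIN1) have an exact match, and TUBB3 and VGF have a second, weaker match.

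Most of the neuronal genes were weakly expressed or silent in control cells. In siCTL, 18 of 46 had a mean FPKM above 0.5 and 2 of these were above 10, against 61.2% and 23.2% of all coding genes. Of the rest, 5 passed the limit only in a knockdown group (BEX1, INA, KCNC1, VGF, MAP2) and so had to differ from siCTL to be tested, while 23 stayed under it in every group. NEFL, the light neurofilament chain, stood highest at 36.96 FPKM in siCTL, followed by STMN3, a stathmin that binds tubulin, at 17.8. BEX2 had 8.32 FPKM, the tubulin TUBB2B 5.71, the adhesion protein NCAM1 2.85, the synaptotagmin SYT11 2.56 and the adhesion protein L1CAM 2.55. The other 2 neurofilament subunits were far below NEFL, with NEFM at 0.103 and NEFH at 0.0240 FPKM. Counts of 0 in both siCTL libraries were found for STMN2, SYT4, ELAVL4 and DCX, and SYT4, a vesicle protein, had none in any of the 12 libraries. At this depth a count of 0 allows up to 3 read pairs in a library, so low expression of these genes cannot be told apart from absence. In bulk RNA, fewer expressing cells and less RNA per cell cannot be told apart either. Of the 19 genes with an RE1-like match, 2 (BEX2 and GRIN1) were above 0.5 FPKM in siCTL, against 16 of the 27 without one.

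**Figure D2:**
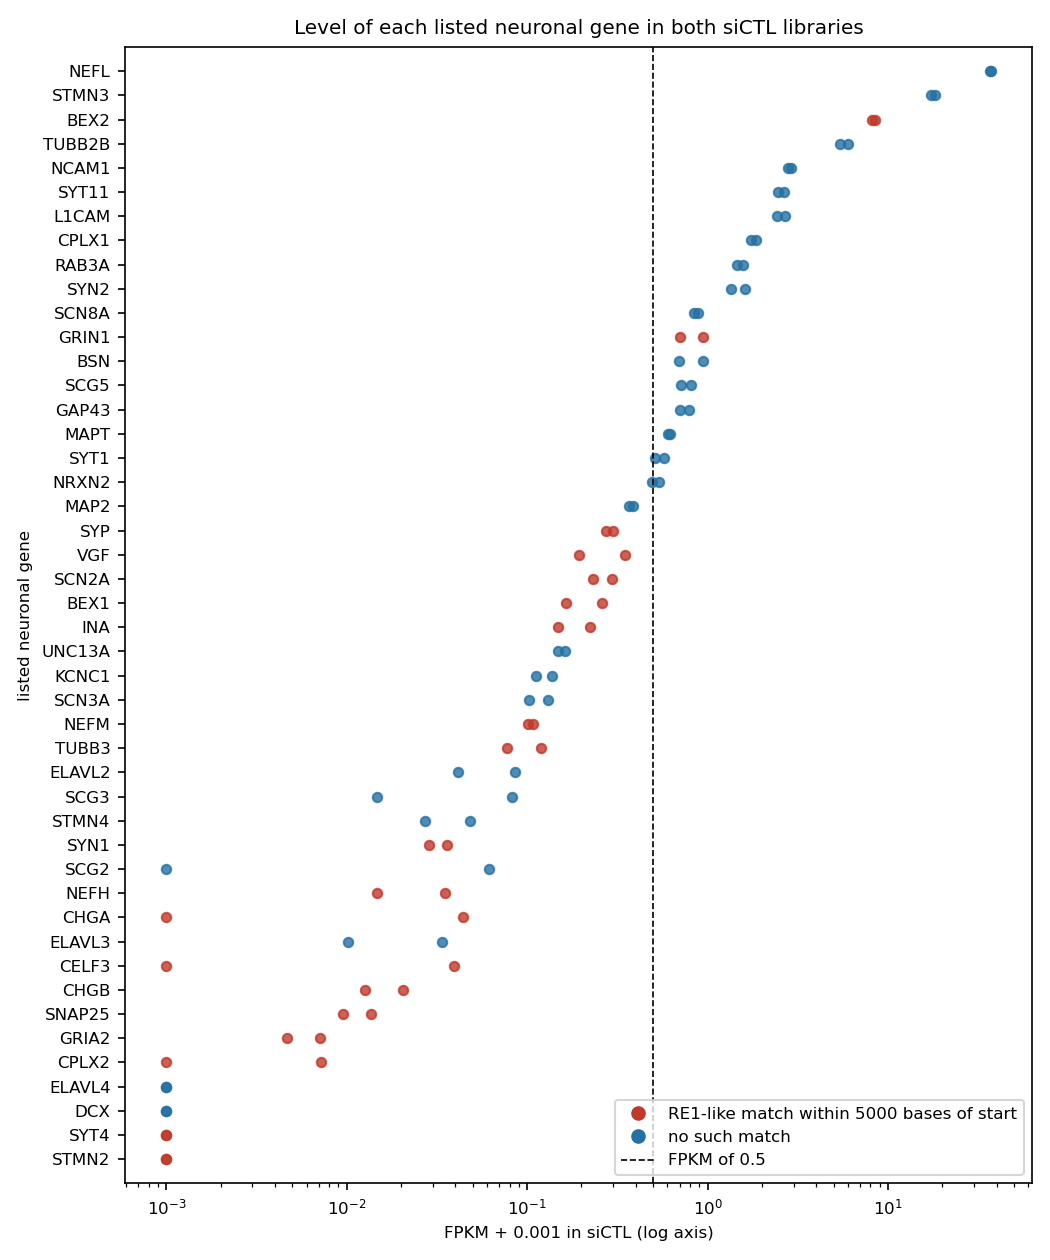
FPKM plus 0.001 on a log axis for each of the 46 listed genes, with 1 point per siCTL library, genes ordered by mean, and the dashed line at 0.5 FPKM. Points at the far left are counts of 0, and red points (RE1-like match) lie left of the line apart from BEX2 and GRIN1.

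Knockdown of KDM1A raised MAP2, GAP43 and SYT11 more than 2-fold and L1CAM and SYT1 less, and lowered RAB3A, GRIN1, BSN and STMN3. Of the 18 listed genes above the limit in siCTL, 6 were called higher and 4 lower, and MAP2 rose among the 5 that passed elsewhere. Over all tested genes 14.2% were called higher and 11.5% lower in siKDM1A, and in a fit of the 12164 genes above the limit in siCTL, 13.0% and 12.1%. MAP2 (ENSG00000078018.20, chromosome 2) measured 4.59 and 4.83 CPM in siCTL and 21.2 and 20.4 CPM in siKDM1A. Both knockdown libraries stood far above both controls, with a log2 fold change of 2.14 with a standard error of 0.123 (4.40-fold, adjusted p = 8.74e-15). GAP43, a growth cone protein of extending axons, was at 1.59 and 1.43 CPM in siCTL and rose to 4.02 and 3.19 CPM, a log2 fold change of 1.26 with a standard error of 0.255 (adjusted p = 0.000187). SYT11, a synaptotagmin that does not sense calcium, went from 14.6 and 13.5 CPM to 32.5 and 32.6 CPM, a log2 fold change of 1.22 with a standard error of 0.0965 (adjusted p = 1.30e-11). The groups did not overlap for either gene, although GAP43 rests on a mean of only 30 read pairs in siCTL.

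L1CAM, which guides axon growth, was at 18.5 and 20.8 CPM in siCTL and 34.4 and 35.3 CPM in siKDM1A, a log2 fold change of 0.82 (adjusted p = 1.09e-09). SYT1, the calcium sensor of fast vesicle release, rose from 5.69 and 5.11 to 8.86 and 9.31 CPM, a log2 fold change of 0.76 (adjusted p = 0.000225). In both genes every siKDM1A library was above every control. The last 2 increases were small. SYN2, a synapsin that coats synaptic vesicles, was at 9.02 and 10.8 CPM in siCTL and 12.4 and 12.5 CPM in siKDM1A (log2 fold change 0.32), and TUBB2B was at 26.5 and 23.8 CPM against 29.1 and 31.7 CPM (0.28). Their libraries did not overlap, but TUBB2B was no longer called without siCTL replicate 2 (0.20) or siKDM1A replicate 2 (0.21). SYN2 was no longer called without siCTL replicate 1 (0.20) or either siKDM1A library (0.33 without replicate 1, 0.31 without replicate 2), and DESeq2 did not call it (adjusted p = 0.0823).

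Among the 4 genes that fell with KDM1A, RAB3A, the small GTPase of synaptic vesicles, dropped from 2.73 and 2.99 CPM to 1.19 and 0.838 CPM, a log2 fold change of −1.51 with a standard error of 0.265 (adjusted p = 2.92e-05). GRIN1, the obligatory subunit of NMDA receptors, fell from 8.20 and 11.0 CPM to 4.16 and 3.98 CPM, a log2 fold change of −1.25 with a standard error of 0.187 (adjusted p = 2.79e-06). Neither gene overlapped between the groups, and GRIN1 is one of the 3 genes with the exact RE1 motif shown above. BSN, the active zone scaffold bassoon, was at 11.9 and 16.2 CPM in siCTL and 10.4 and 8.09 CPM in siKDM1A (log2 fold change −0.62, adjusted p = 0.000461). Its control libraries lay far apart, and without siCTL replicate 2 the change was −0.38 and not called. STMN3 fell from 55.2 and 58.6 CPM to 45.0 and 41.4 CPM, a log2 fold change of −0.40 (adjusted p = 1.35e-05) with no overlap. The most abundant member, NEFL, was not called, at a log2 fold change of 0.07 with a 95% interval from −0.03 to 0.16. An RE1-like match lies near 5 of the 23 tested genes, near none of the 7 called higher and near 1 of the 4 called lower, GRIN1, and with so few genes nothing is read from these counts.

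**Figure D3:**
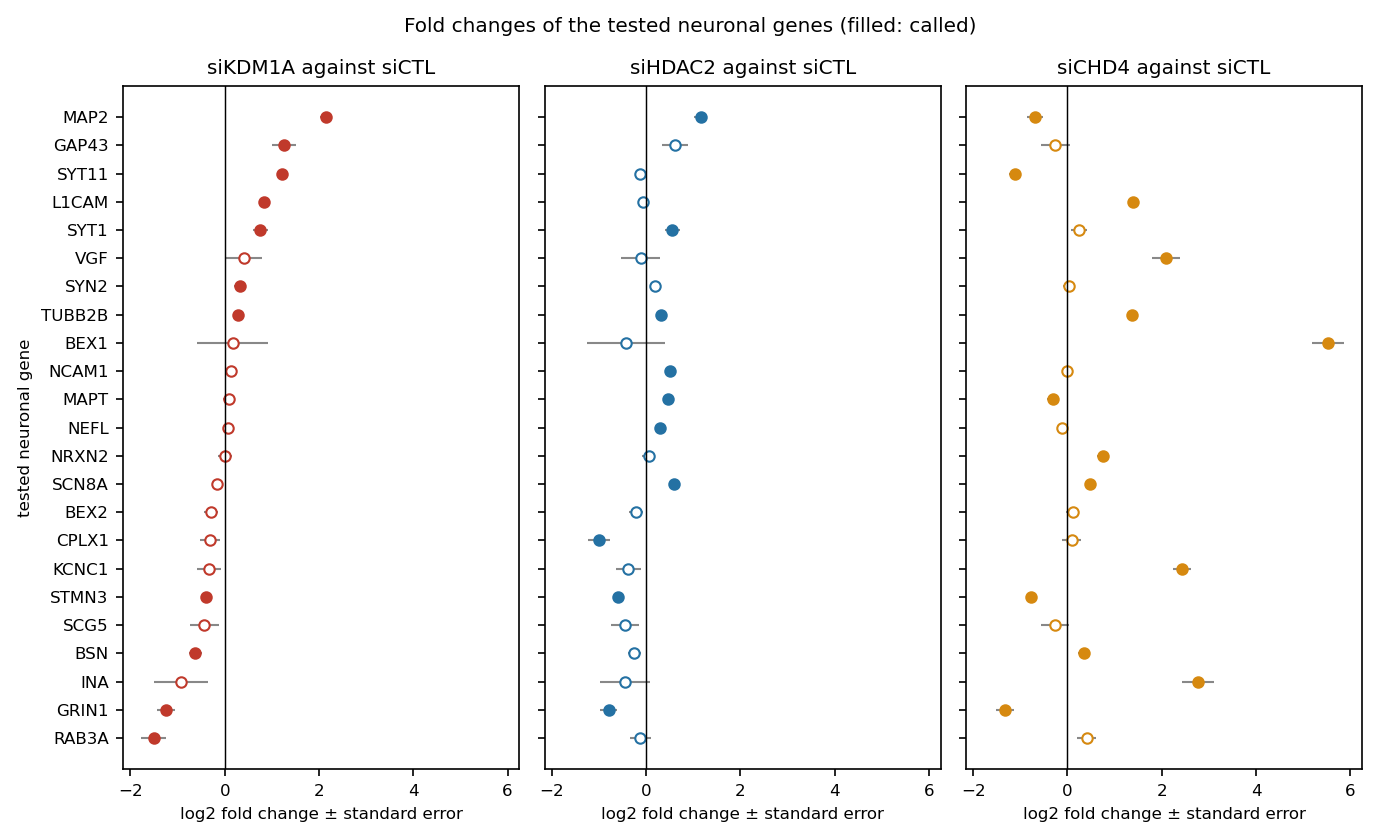
Log2 fold change against siCTL (x axis, points, with standard errors as lines) of the 23 tested genes for siKDM1A, siHDAC2 and siCHD4, in the order of the siKDM1A values, with filled points for called genes. MAP2 lies at 2.14 under siKDM1A and at −0.69 under siCHD4, and BEX1 at 5.53 under siCHD4 is the farthest point.

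By role, the 3 adhesion genes and both BEX genes were all tested, as were 7 of the 13 cytoskeletal and growth cone genes, 6 of the 12 genes of synaptic vesicles and release, 3 of the 6 channels and receptors and 2 of the 6 genes of dense core granules. None of the 4 neuronal RNA-binding genes (ELAVL2, ELAVL3, ELAVL4, CELF3) was tested. The median log2 fold change of the 23 tested genes was 0.07 in siKDM1A, −0.12 in siHDAC2 and 0.11 in siCHD4, where the medians of all tested genes were 0.0033, −0.0024 and 0.0020. The tested genes include the 5 that passed only through a knockdown group, so these medians are a description.

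Knockdown of HDAC2, the deacetylase shared by CoREST and NuRD, raised MAP2, SCN8A, NCAM1 and MAPT and lowered STMN3, with further calls that rested on single libraries. Of the 18 genes above the limit in siCTL, 6 were called higher and 3 lower, and MAP2 was again called higher among the other 5. Over all tested genes 10.6% were called higher and 9.00% lower in siHDAC2, and among those above the limit in siCTL, 9.78% and 9.39%. MAP2 measured 10.8 and 10.3 CPM in siHDAC2 against 4.59 and 4.83 CPM in siCTL, a log2 fold change of 1.16 with a standard error of 0.134 (2.23-fold, adjusted p = 5.70e-08). The siHDAC2 libraries of MAP2 stood above both controls and below both siKDM1A libraries. SCN8A, a voltage-gated sodium channel, rose from 11.6 and 11.2 CPM to 18.7 and 15.9 CPM, a log2 fold change of 0.59 (adjusted p = 8.87e-05). NCAM1 rose from 38.8 and 37.7 CPM to 53.2 and 54.7 CPM, a log2 fold change of 0.50 (adjusted p = 9.73e-07). MAPT, which encodes the axonal microtubule protein tau, rose from 11.70 and 12.01 CPM to 15.7 and 17.1 CPM, a log2 fold change of 0.47 (adjusted p = 0.000739). The groups did not overlap in any of these genes, nor in SYN2, GAP43 and RAB3A, which were not called.

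The other increases in siHDAC2 depended on single libraries. SYT1 measured 7.06 and 8.61 CPM against 5.69 and 5.11 CPM in siCTL (log2 fold change 0.56), TUBB2B 29.7 and 32.8 CPM against 26.5 and 23.8 CPM (0.32), and NEFL 183 and 193 CPM against 153 and 155 CPM (0.29). All 3 had higher values in siHDAC2 replicate 2 and none was called without it, at 0.39, 0.24 and 0.25, which left 4 genes called higher. SYT1 and TUBB2B were also not called without siCTL replicate 2, at 0.47 and 0.24.

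Among the genes that fell in siHDAC2, CPLX1, a complexin that clamps vesicle fusion, went from 4.59 and 4.32 CPM to 2.78 and 1.79 CPM (log2 fold change −1.0, standard error 0.228, adjusted p = 0.000907). STMN3 fell from 55.2 and 58.6 CPM to 38.1 and 37.8 CPM (−0.59, adjusted p = 5.08e-08), and GRIN1 from 8.20 and 11.0 CPM to 4.74 and 6.22 CPM (−0.80, adjusted p = 0.000739). None of the 3 overlapped with siCTL. CPLX1 was not called without siHDAC2 replicate 2 (−0.68), nor GRIN1 without siCTL replicate 2 (−0.56).

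Knockdown of CHD4 raised BEX1, INA, KCNC1 and VGF, all under 0.5 FPKM in siCTL, together with L1CAM and TUBB2B, and lowered SYT11, GRIN1, STMN3 and MAP2. The fall of CHD4 itself was the smallest of the 5 targets, and GATAD2A rose in siCHD4 by a log2 value of 1.09. Of the 18 genes above the limit in siCTL, 5 were called higher and 4 lower, and of the 5 that passed elsewhere 4 were higher and MAP2 lower. Over all tested genes 24.0% were called higher and 24.9% lower in siCHD4, and among those above the limit in siCTL, 22.5% and 25.5%. BEX1, a small adaptor protein of neuronal growth factor signalling, measured 0.219 and 0.138 CPM in siCTL and 8.74 and 7.88 CPM in siCHD4. The change was 5.53 on the log2 scale (95% interval 4.83 to 6.22, adjusted p = 4.91e-15), which rests on 7 read pairs in siCTL and 383 in siCHD4 over both libraries. Its paralog BEX2, with a nearly identical RE1-like match, was expressed in all groups and was not called in siCHD4, at 10.2 and 9.80 CPM against 9.80 and 11.8 CPM.

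INA, an intermediate filament of neurons, rose from 0.766 and 0.506 CPM to 4.24 and 4.34 CPM, a log2 fold change of 2.77 with a standard error of 0.336 (adjusted p = 1.83e-08). KCNC1, a fast potassium channel, rose from 2.08 and 1.70 CPM to 9.94 and 10.2 CPM, a log2 fold change of 2.42 with a standard error of 0.187 (adjusted p = 1.17e-12). VGF, a neuropeptide precursor of dense core vesicles, rose from 0.984 and 0.552 CPM to 3.27 and 3.15 CPM, a log2 fold change of 2.09 with a standard error of 0.303 (adjusted p = 5.01e-07). These genes were under 0.5 FPKM in siCTL, at means of 12.5 (INA), 37.5 (KCNC1) and 15 (VGF) read pairs. For each of them, both siCHD4 libraries were above every library of the other 5 groups. The limit favours this outcome, since these genes passed it only in knockdown groups. An RE1-like match lies near 5 of the 23 tested genes, near 3 of the 9 called higher (INA, VGF and BEX1) and near 1 of the 5 called lower. INA, VGF and BEX1 were tested only because they passed the limit outside siCTL, so nothing is read from these counts. In siKDM1A BEX1, INA and VGF were not called: the log2 fold changes were 0.16 (95% interval −1.38 to 1.70), −0.92 (−2.08 to 0.24) and 0.42 (−0.36 to 1.195), so that the counts leave room for a moderate change but not for one of the size seen in siCHD4. In siHDAC2 they were −0.42 (−2.10 to 1.27), −0.45 (−1.53 to 0.63) and −0.12 (−0.96 to 0.72).

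Among genes already expressed in control cells, L1CAM rose from 18.5 and 20.8 CPM to 51.2 and 52.3 CPM in siCHD4 (log2 fold change 1.39, adjusted p = 5.00e-16). TUBB2B rose from 26.5 and 23.8 CPM to 65.7 and 63.6 CPM (1.37, adjusted p = 1.72e-16). NRXN2, a presynaptic adhesion protein, rose from 7.27 and 8.004 CPM to 13.6 and 12.3 CPM (0.76, adjusted p = 7.94e-06). All siCHD4 libraries of these 3 genes lay above the controls. SCN8A was at 15.7 and 16.0 CPM against 11.6 and 11.2 CPM (0.47, adjusted p = 0.000394). BSN was at 17.2 and 18.9 CPM against 11.9 and 16.2 CPM (0.35, adjusted p = 0.0154), and was not called without siCTL replicate 1 (0.15) or without siCHD4 replicate 2 (0.27).

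The genes that fell in siCHD4 included 2 that KDM1A knockdown raised. SYT11 was at 6.23 and 6.73 CPM against 14.6 and 13.5 CPM in siCTL (log2 fold change −1.11, adjusted p = 1.46e-09), and MAP2 at 3.18 and 2.68 CPM against 4.59 and 4.83 CPM (−0.69, adjusted p = 0.000646). Both were below the controls in both libraries. GRIN1 was at 3.84 and 3.83 CPM (−1.33, adjusted p = 3.34e-07) and STMN3 at 34.4 and 32.1 CPM (−0.78, adjusted p = 2.66e-11), each under both of its control values given above. MAPT was at 9.54 and 9.50 CPM against 11.70 and 12.01 CPM (−0.32, adjusted p = 0.0144). This call was lost without siCTL replicate 2 (−0.30) or siCHD4 replicate 2 (−0.32), and with counts that ignore strand (−0.17).

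**Figure D4:**
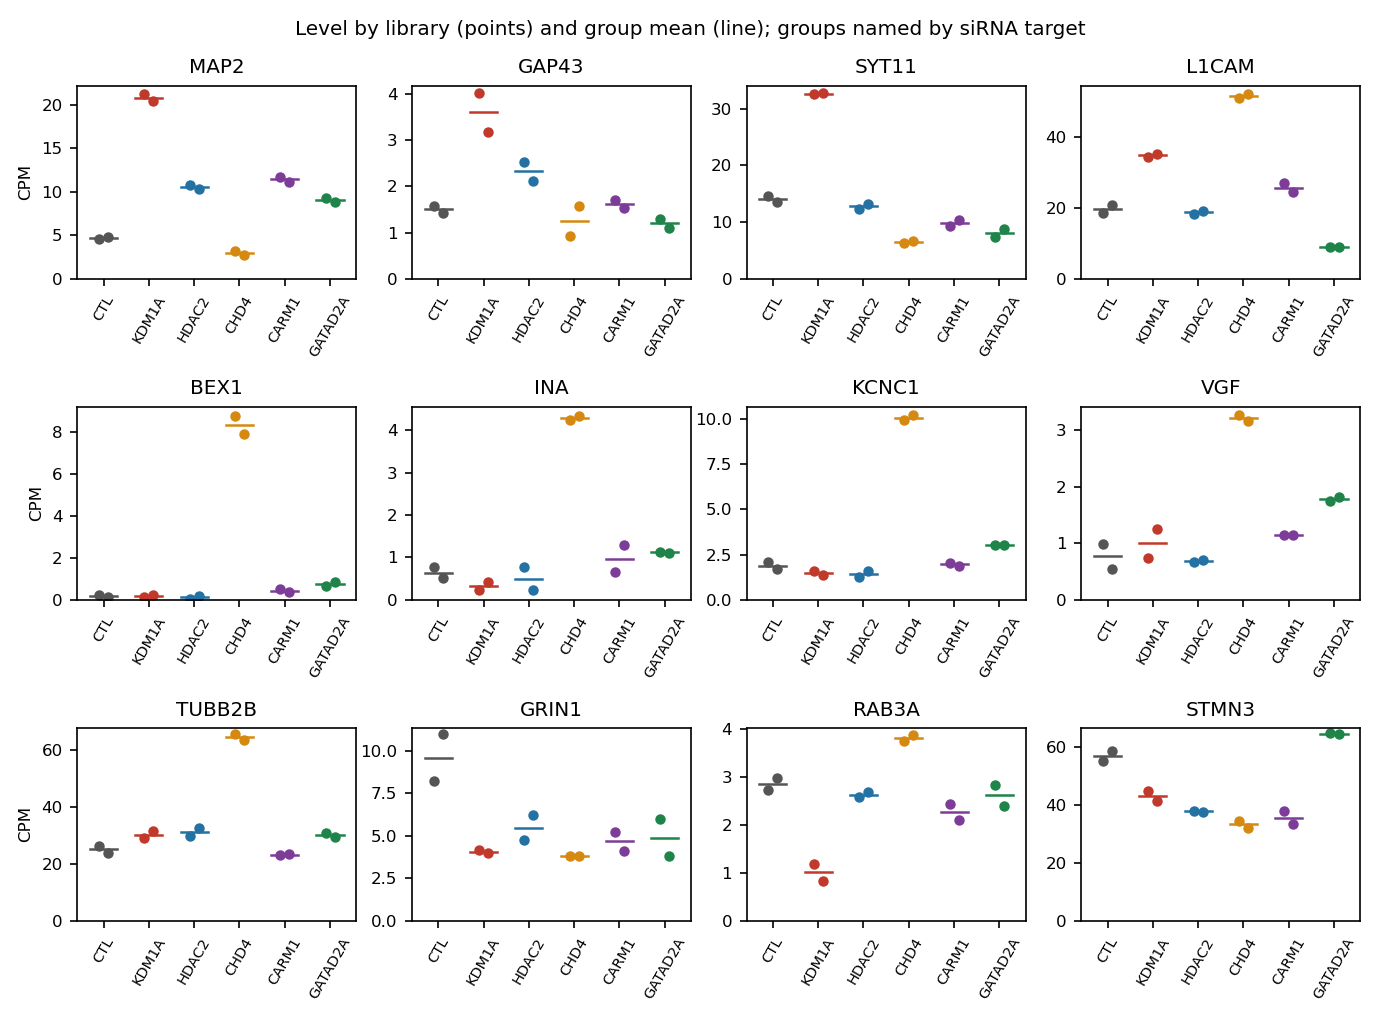
CPM of 12 listed genes (y axes from 0, 1 panel per gene) in both libraries of each of the 6 groups (points) with the group mean (line). MAP2, GAP43 and SYT11 are highest in siKDM1A, while BEX1, INA, KCNC1 and VGF are highest in siCHD4 and GRIN1 is highest in siCTL.

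The knockdowns were then compared with each other directly. Between siKDM1A and siHDAC2, 10 listed genes were called, 5 in each direction, where 14.3% of all tested genes were called, 8.28% higher and 6.07% lower in siKDM1A. SYT11 (log2 difference 1.35, adjusted p = 2.56e-12), MAP2 (0.98, adjusted p = 1.77e-08), L1CAM (0.89, adjusted p = 4.27e-10), CPLX1 (0.68, adjusted p = 0.0277) and GAP43 (0.64, adjusted p = 0.0353) were higher in siKDM1A. RAB3A (−1.38, adjusted p = 0.000163), SCN8A (−0.75), MAPT (−0.39), BSN (−0.38) and NCAM1 (−0.36) were lower. The set of 10 shrank to 6 without siHDAC2 replicate 2, and it holds MAP2, which passed the limit only in knockdown groups.

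Between siKDM1A and siCHD4, 18 listed genes were called, against 47.7% of all tested genes, 25.0% higher and 22.8% lower in siKDM1A. Higher in siKDM1A were 7 genes, led by MAP2 (2.82, standard error 0.130, adjusted p = 8.45e-18), SYT11 (2.33, standard error 0.106, adjusted p = 6.21e-18) and GAP43 (1.51, standard error 0.256, adjusted p = 6.24e-06). Lower in siKDM1A were 11, led by BEX1 (−5.36), INA (−3.69), KCNC1 (−2.76), RAB3A (−1.92) and VGF (−1.67), with adjusted p between 2.81e-15 and 3.98e-06. L1CAM, called higher against siCTL in both, was lower in siKDM1A than in siCHD4 by −0.57 (adjusted p = 3.40e-08). Between siHDAC2 and siCHD4, 18 were also called, with 48.8% of all tested genes, and BEX1 (−5.94), INA (−3.22), KCNC1 (−2.80) and VGF (−2.20) were again lower than in siCHD4. BEX1, INA, KCNC1, VGF and MAP2 were tested only because they passed the limit in a knockdown group. That favours differences between knockdowns, so these counts and the differences of these genes are a description.

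The remaining groups share the siCTL libraries with those above, and their values are set beside them. In siCARM1, 4 listed genes were called higher and 5 lower, where 14.9% and 14.5% of all tested genes were called. The 18 genes above the limit in siCTL held 3 of the higher and all 5 of the lower ones, against 14.0% and 15.2% of such genes. MAP2 was at 11.7 and 11.2 CPM (log2 fold change 1.27), NCAM1 at 53.5 and 50.6 CPM (0.45), L1CAM at 27.1 and 24.4 CPM (0.39) and NEFL at 200 and 202 CPM (0.38), all above both controls. The genes called lower were GRIN1 (−1.03), STMN3 (−0.67), SYT11 (−0.52), SYN2 (−0.41) and BEX2 (−0.40). SYN2 and BEX2 were not called without siCTL replicate 2, and BEX2 was not called by DESeq2 (adjusted p = 0.0563). In siGATAD2A, 6 were called higher and 3 lower, where 15.7% and 18.2% of all tested genes were called. Of these, 2 of the higher and all 3 of the lower ones were above the limit in siCTL, against 14.9% and 18.9% of such genes. BEX1, at 0.651 and 0.841 CPM (2.05), VGF, at 1.75 and 1.81 CPM (1.24), and KCNC1, at 3.01 CPM in both libraries (0.68), stood above siCTL and below siCHD4. The calls of VGF and KCNC1 were lost without siCTL replicate 2. MAP2 (0.94), NCAM1 (0.30) and TUBB2B (0.27) were also higher in siGATAD2A, while L1CAM (−1.13), GRIN1 (−0.97) and SYT11 (−0.80) were lower. TUBB2B, at a fold of 1.204, was not called without siCTL replicate 2 (0.19), without siGATAD2A replicate 1 (0.23) or with no filter on FPKM (0.26).

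Set against the list by their direct comparison, siGATAD2A and siCHD4 differed in 14 genes, where 44.8% of all tested genes were called. BEX1 (−3.48), INA (−1.93), KCNC1 (−1.74), TUBB2B (−1.10) and VGF (−0.85) were lower in siGATAD2A, as was L1CAM (−2.53). MAP2 (1.63) and STMN3 (0.96) were higher. BEX1, INA, KCNC1, VGF and MAP2 were tested only because they passed the limit in a knockdown group, so their differences are a description. GRIN1 was the 1 listed gene called lower in all 5 knockdowns, at log2 fold changes from −1.33 to −0.80. Its highest knockdown value, 6.22 CPM, lay under its lowest control value, 8.20 CPM, but all 5 comparisons share the siCTL libraries. BEX2 and GRIN1 are the genes with an RE1-like match that control cells expressed. SCG5, which helps process prohormones, was called in no comparison with siCTL, and 51.4% of its exonic bases are shared with the readthrough gene ARHGAP11A-SCG5.

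The 23 genes that stayed under 0.5 FPKM in every group, with a highest group mean of 0.395, were looked at as raw read pairs and in an edgeR fit with no filter on FPKM (17903 genes). In siKDM1A, 2 of them were called higher and none lower, where that fit called 11.0% of its genes higher and 9.23% lower. ELAVL3, a neuronal RNA-binding protein of the Hu family, had 3 and 1 read pairs in siCTL and 26 and 20 in siKDM1A, a ratio of 10.1 with an exact 95% interval for counting error of 3.67 to 38.5 (adjusted p = 8.32e-05). SCN3A, a sodium channel of the developing brain, had 29 and 27 in siCTL and 90 and 102 in siKDM1A (log2 fold change 1.57, adjusted p = 9.95e-09). Both siKDM1A libraries of each gene exceeded all 10 other libraries. In siHDAC2 none of the 23 was called, where the fit called 8.10% of genes higher and 7.40% lower.

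In siCHD4, 5 of the 23 were called higher and 2 lower, where 19.1% and 20.0% of genes were called in that fit. TUBB3, the neuronal beta tubulin, had 17 and 13 read pairs in siCTL and 50 and 56 in siCHD4 (log2 fold change 1.58, adjusted p = 1.40e-05), and 21.3% of its exonic bases are shared with another annotated gene on its strand. UNC13A, which primes synaptic vesicles, had 35 and 38 in siCTL and 102 and 83 in siCHD4 (1.11, adjusted p = 7.13e-06). NEFH, the heavy neurofilament chain, had 1 and 3 in siCTL and 32 and 17 in siCHD4, a ratio of 10.6 with an interval of 3.90 to 40.6 (adjusted p = 7.65e-05). The siCHD4 libraries of these genes were above those of the other groups throughout. CHGA, a granin of dense core vesicles, had 0 and 3 in siCTL and 9 and 14 in siCHD4, a ratio of 6.65 with an interval of 2.01 to 34.6 (adjusted p = 0.0246). CPLX2, the second complexin, had 0 and 1 against 13 and 6, a ratio of 16.5 with an interval of 2.62 to 685 (adjusted p = 0.0131). An RE1-like match lies near 14 of the 23 low genes, near 4 of these 5 (all but UNC13A) and near both genes called lower, SCN2A and NEFM. All 5 stayed under 0.5 FPKM in siCHD4.

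DCX, a microtubule protein of migrating neurons, had no read pair in siCTL and 6 and 3 in siCHD4. The ratio was 2.60 against a floor of 3 read pairs over the siCTL group, which leaves out counting error in siCHD4. DCX was not called. SCN2A, a sodium channel of axons, went the other way, with 137 and 129 read pairs in siCTL and 65 and 91 in siCHD4 (log2 fold change −1.0, adjusted p = 2.13e-08). In siGATAD2A SCN2A had 72 and 67 (−1.18, adjusted p = 1.19e-10) and SCN3A 20 and 17 (−0.84, adjusted p = 0.0389). NEFM had 7 and 9 in siCTL and 0 and 2 in siCHD4 (adjusted p = 0.0101). SYP, the vesicle protein synaptophysin, was called in siCARM1 alone, at 27 and 25 read pairs against 40 and 44 (−0.93, adjusted p = 0.00703). The same fit called 11.5% of genes lower in siCARM1 and 14.3% in siGATAD2A.

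**Figure D5:**
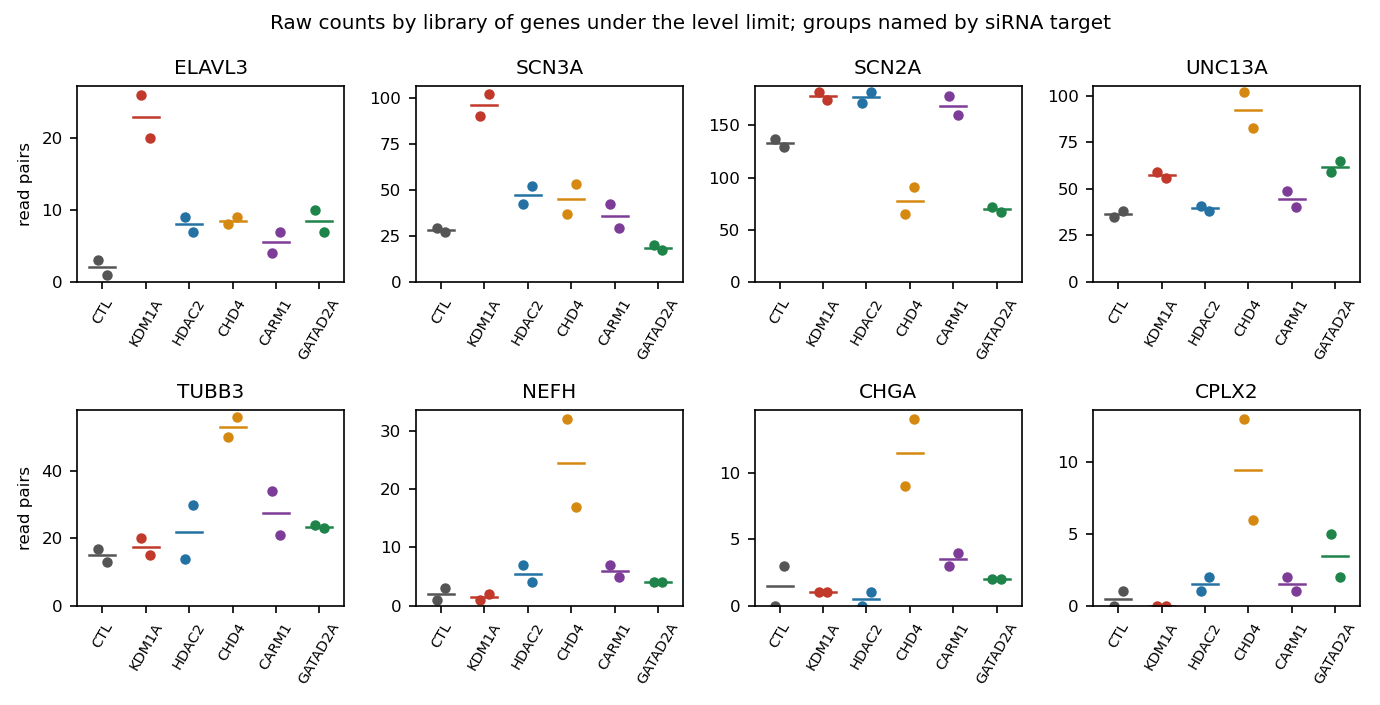
Raw read pairs per library (points, y axes from 0) with the group mean (line) for 8 listed genes under 0.5 FPKM in every group. ELAVL3 and SCN3A are highest in siKDM1A, UNC13A, TUBB3, NEFH, CHGA and CPLX2 are highest in siCHD4, and SCN2A is lowest in siCHD4 and siGATAD2A.

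The machinery that acts on these genes was compared next, as a list of 23 genes of REST, CoREST and their partners, all of which were tested. REST itself, at 109 and 108 CPM in siCTL, was called in no knockdown, with log2 fold changes from −0.09 to 0.14, and the value of 0.14 in siHDAC2 had an adjusted p of 0.022 at a fold under 1.2. In siKDM1A 1 gene of the list was called higher and 3 lower, and in siHDAC2 2 and 2. The targeted gene was among the lower ones in both. In siCHD4 2 were called higher and 1 lower. The shares over all tested genes were 14.2% and 11.5% in siKDM1A, 10.6% and 9.00% in siHDAC2, and 24.0% and 24.9% in siCHD4. The medians of the list were 0.04, 0.05 and 0.01 on the log2 scale. RCOR2, the CoREST scaffold of stem cells and neural progenitors, rose from 12.7 and 14.7 CPM to 27.9 and 29.4 CPM in siCHD4 (log2 fold change 1.06, adjusted p = 1.72e-10). HDAC1, the other deacetylase of CoREST and NuRD, rose in all 5 knockdowns by 0.31 to 0.52, always against the same siCTL libraries. RCOR3 (−0.38) and the phosphatase CTDSPL (−0.36) were lower in siKDM1A. In siHDAC2, ZMYM3 was higher (0.37) and CTDSP1 lower (−0.27).

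Of 22 further genes known as REST targets, 3 were expressed well enough to be tested. BDNF, a neuronal growth factor, rose in all 5 knockdowns, which are compared with the same siCTL libraries. It went from 7.55 and 7.54 CPM in siCTL to 13.9 and 14.8 in siKDM1A (log2 fold change 0.93), 10.7 and 10.5 in siHDAC2 (0.49) and 19.6 CPM in both siCHD4 libraries (1.38). It was highest in siGATAD2A, at 24.8 and 23.8 CPM (1.69). MAPK8IP1, a scaffold of JNK signalling, fell in siKDM1A (−0.51, adjusted p = 2.45e-06), as did CDK5R1, the activator of CDK5 (−0.29, adjusted p = 0.0118). The other 19 stayed under the limit in every group, and 15 of them entered the fit with no filter on FPKM. That fit called 2 higher in siCHD4, 1 lower in siKDM1A, 1 higher and 1 lower in siGATAD2A, and none in siHDAC2 or siCARM1. Over all its genes it called 19.1% higher in siCHD4, 9.23% lower in siKDM1A, and 11.9% higher and 14.3% lower in siGATAD2A. With so few genes, nothing is read from these counts. SLC18A3, the vesicular acetylcholine transporter, had 1 and 4 read pairs in siCTL and 13 and 20 in siCHD4 (adjusted p = 0.00928), and CALB1, a calcium-binding protein, had none in siCTL and 4 and 10 in siCHD4 (adjusted p = 0.00983). CHRNB2, whose RE1 was the query, had 4 in each siCTL library and none in siKDM1A (adjusted p = 0.037). In siGATAD2A the splicing regulator SRRM4 had 29 and 34 against 6 and 11 (adjusted p = 0.00124), and SLC12A5, a neuronal chloride transporter, was lower (log2 fold change −0.64, adjusted p = 0.0279).

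Markers of other cells were read beside these results. Of the glial markers, MBP and OLIG2 were above 0.5 FPKM in siCTL, and GFAP, AQP4 and SOX10 were below. The summed level of the glial list was 2.16 to 2.35 FPKM in siCTL, 3.50 to 3.64 in siCHD4, and 1.65 to 1.69 in siKDM1A, and MBP and OLIG2 were both called higher in siCHD4. The pan-leukocyte marker PTPRC was at 0 in siCTL and siCHD4. The 5 fibroblast markers, of which COL1A1 and LUM were above 0.5 FPKM in siCTL, summed to 12.9 FPKM in both siCTL libraries, 9.95 to 10.2 in siCHD4 and 14.3 to 15.7 in siKDM1A. Of the genes of the HEK293 kidney lineage, LHX1 and EYA1 were above 0.5 FPKM in siCTL, and NR0B1 rose in siCHD4 (log2 fold change 5.32). Of the hepatocyte markers ALB and APOA1, neither reached 0.5 FPKM in any group. In siCHD4 genes of other lineages thus moved beside the neuronal ones, and their part in the result was not tested.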

How the data were processed

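RNA-seq was measured in 12 HEK293T libraries made with a directional kit and paired-end sequencing. Per the labels and the submitters' processing notes, reads were handled with CASAVA 1.4 and STAR 2.7.10 on hg19, whereas TopHat and HOMER are the tools in the paper's methods, and the annotation is not given in the sources used here. For each Ensembl gene the authors deposited unnormalized counts of read pairs, for both strands together and for each strand. Reads with several locations are not in them, so paralogs such as BEX1 and BEX2 or TUBB2B and TUBB2A can lose reads. The reverse-strand column was used here, with 7.93% to 8.40% as many counts in the column of the other strand. Identifiers were matched to GENCODE 44 on GRCh37, 58662 of 60660 (96.7%), and the rest, 1.75% to 2.61% of a library, were not used.

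FPKM was computed from the gene total and exonic length. The 12830 coding genes with FPKM above 0.5 in at least 1 group mean were fitted with edgeR 4.0.16 (R 4.3.3, limma 3.58.1) in a model of 6 group means with TMM factors (0.968 to 1.01), and the biological coefficient of variation was 3.47%. Benjamini-Hochberg adjustment ran over all genes of a comparison. Libraries of a group differed by more than sampling noise (chi-square per degree of freedom 1.77 to 4.97). Intervals and floors of read pairs cover counting error only. Replicate numbers did not pair the libraries: deviations from the group means correlated at −0.183 to 0.170 over 15 pairs of groups. RE1-like matches were searched in the GRCh37 sequence of GENCODE, from a query read at 1 known element. The procedure was tested on simulated data.

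The listed genes, the other gene lists and the tests were chosen with earlier results of these data known. All listed genes may be named, those called in siKDM1A, siHDAC2 or siCHD4 with full statistics, and from the other lists the called genes. The alternatives were RLE size factors, DESeq2 1.42.0, a replicate block, unstranded counts, fits of only the 2 groups compared, FPKM above 1, no filter on FPKM, no fold minimum and each library left out. FPKM above 0.5 in siCTL was added after seeing the data. Low genes shown in read pairs were chosen after their values were seen. A few genes of the other lists are not reported here.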

Additional observations from a re-analysis of the deposited data

Results flagged for a closer look

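Some listed genes moved in opposite directions under different siRNAs, and in each such pair the difference between the knockdowns was tested in the same edgeR model. These pairs were picked because the calls against siCTL had opposite signs. MAP2 rose under 4 siRNAs and fell under siCHD4, and its log2 value exceeded that in siCHD4 by 2.82 in siKDM1A, 1.84 in siHDAC2, 1.96 in siCARM1 and 1.63 in siGATAD2A. SYT11 was higher in siKDM1A and lower in 3 others, with a difference of 2.33 from siCHD4, 1.73 from siCARM1 and 2.01 from siGATAD2A. L1CAM was lower in siGATAD2A alone, and stood above it by 1.96 in siKDM1A, 2.53 in siCHD4 and 1.52 in siCARM1. Smaller opposite pairs were SYN2, with siKDM1A above siCARM1 by 0.733, MAPT, with siHDAC2 above siCHD4 by 0.787, and BSN, with siCHD4 above siKDM1A by 0.974.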

How the results depend on the processing

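With 2 libraries per group, single libraries limited the smaller calls. Of 53 calls of listed genes against siCTL, RLE size factors, the replicate block, the fit of only the 2 groups compared and the absence of a fold minimum left all 53 called. DESeq2 left 51, counts without regard to strand 52 and no filter on FPKM 52. Of 212 refits that left out a library of the compared groups, 27 lost the call. The direction of every call held under all these settings. The replicate block gave 7 genes higher in siKDM1A, 7 in siHDAC2 and 9 in siCHD4, and moved 1 count, siGATAD2A against siCHD4, from 14 to 15.

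The counts that moved most with the filter were those called higher in siCHD4 (9), 14 with no filter on FPKM and 5 with FPKM above 0.5 in siCTL, those lower in siCHD4 (5), 3 with FPKM above 1, those lower in siGATAD2A (3), 5 with no filter, and those higher in siGATAD2A (6), 2 with FPKM above 0.5 in siCTL. For siKDM1A against siCHD4 no filter gave 28 in place of 18. For siGATAD2A against siCHD4 it gave 22 in place of 14, and FPKM above 0.5 in siCTL gave 9. Smaller shifts included the genes higher in siKDM1A (7), 9 with no filter and 6 with either stricter one, those higher in siHDAC2 (7), 5 with FPKM above 1 and 6 with FPKM above 0.5 in siCTL, and those lower in siCARM1 (5), 6 with no filter. These filters change how many listed genes are tested. With a library left out, 3 to 5 were lower in siCARM1, 4 to 7 higher in siHDAC2 and 6 to 10 called between siKDM1A and siHDAC2.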
